A study of Rattus norvegicus with 9 samples.

Results

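A set of 8 sodium channel genes was examined in the thalamus of young rats, namely Scn1a, Scn2a, Scn3a and Scn8a, which encode pore-forming alpha subunits of voltage-gated sodium channels, Scn2b, Scn3b and Scn4b, which encode auxiliary beta subunits, and Nalcn, which encodes the sodium leak channel. All probe sets that the platform annotation gives to 1 of these symbols were taken, and none was left out. They were 10 probe sets, of 31042 rat probe sets on the array, and the 8 genes were among 14217 named ones. Scn2b and Scn3b had 2 probe sets each and the other genes had 1.

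The chow group was 4 arrays of thalamus from male Wistar rats that ate pelleted feed for 8 days, and the powder group was 5 arrays from rats that ate powdered feed over the same days. Rats of both groups entered the study at 3 weeks of age, spent 2 days on powder before the diets diverged, and are labelled as 5 weeks old. The protocol used 10 rats, of which 9 arrays are described here. No label ties an array to an animal, so the p-values cover the spread among these arrays, which may be technical. The comparison of chow with powder addressed whether chewing after weaning changes gene expression in the thalamus.

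Voltage-gated sodium channels open when a neuron is depolarised and carry the rising phase of the action potential. The large alpha subunit forms the pore, and the small beta subunits, each with an immunoglobulin-like domain outside the cell, alter gating and bind other adhesion molecules. The leak channel encoded by Nalcn passes a steady sodium current that sets how far the resting potential lies from threshold. In thalamic relay neurons, sodium spikes follow the low-threshold calcium spike in burst firing and also make up tonic firing.

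The members were of 2 kinds in the deposited table. Values are log2 expression values as the authors deposited them, and 7 member probe sets, of 5 genes, varied over the arrays by 0.32 to 0.71 log2 units. The other 3, the single probe sets of Scn2a, Scn8a and Nalcn, varied by less than 0.01, as did 84.4% of all rat probe sets. Such compressed values can pass a test while their difference has almost no size. The limit of 0.01 uses the same 9 values as the comparison, so the limit is not independent of the comparison.

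The array labelled chow 1 stood apart. Its striatal neuron markers averaged 8.69, against 7.63 to 7.75 on the other chow arrays and 7.57 to 7.67 on the powder arrays. Its thalamic relay neuron markers averaged 9.40, against 9.80 to 10.00 on the other chow arrays and 9.82 to 9.96 on the powder arrays. These means cover 7 of 9 striatal and 10 of 13 relay probe sets, those that spanned at least 0.01. Without detection calls, no marker could be set against background or called absent. The tissue is a mixture of cells, and fewer cells of a type cannot be told apart from less RNA per cell. Results for the members are therefore given with and without chow 1.

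Over the members, 3 of 10 probe sets passed the test, with 1 higher and 2 lower under chow, by limma and a Benjamini-Hochberg adjusted p under 0.05 over all rat probe sets. Over the whole array 34.6% were called, 17.9% higher and 16.7% lower under chow, so the members' share lay near the background. Among the 7 members that spanned at least 0.01, 1 was higher and 1 lower, and both belonged to Scn2b. The background among such probe sets was 54.9%, made of 16.1% higher and 38.8% lower. Groups did not overlap for 2 of the 7, where 50% of such probe sets did not overlap. The median difference of the 7 was -0.05, and that of all 4849 probe sets that spanned at least 0.01 was -0.11. Without chow 1 the members again gave 1 higher and 2 lower calls, on the same 3 probe sets, against 26.1% called over the array (12.3% higher and 13.9% lower) and 12.9% higher and 35.2% lower among probe sets that spanned at least 0.01. The directions of Scn2a and Nalcn, both compressed, depended on scaling, and that of Scn8a did not. Scn2a and Scn8a, not called in the main fit, were called higher after quantile normalization and with array medians subtracted. After quantile normalization 5 member probe sets were higher and 1 lower, with 15610 higher and 1854 lower overall. With array medians subtracted the counts were 4 and 1, with 27206 and 2141 overall. Array medians were 7.3936 ± 0.0024 under chow and 7.4001 ± 0.0017 under powder (n = 4 and 5, SD), a gap wider than the median span of the compressed probe sets, 0.000475 (exact permutation p = 0.00794, the smallest that 4 against 5 arrays allow, and 0.0397 adjusted over 10 such comparisons).

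**Figure D1:**
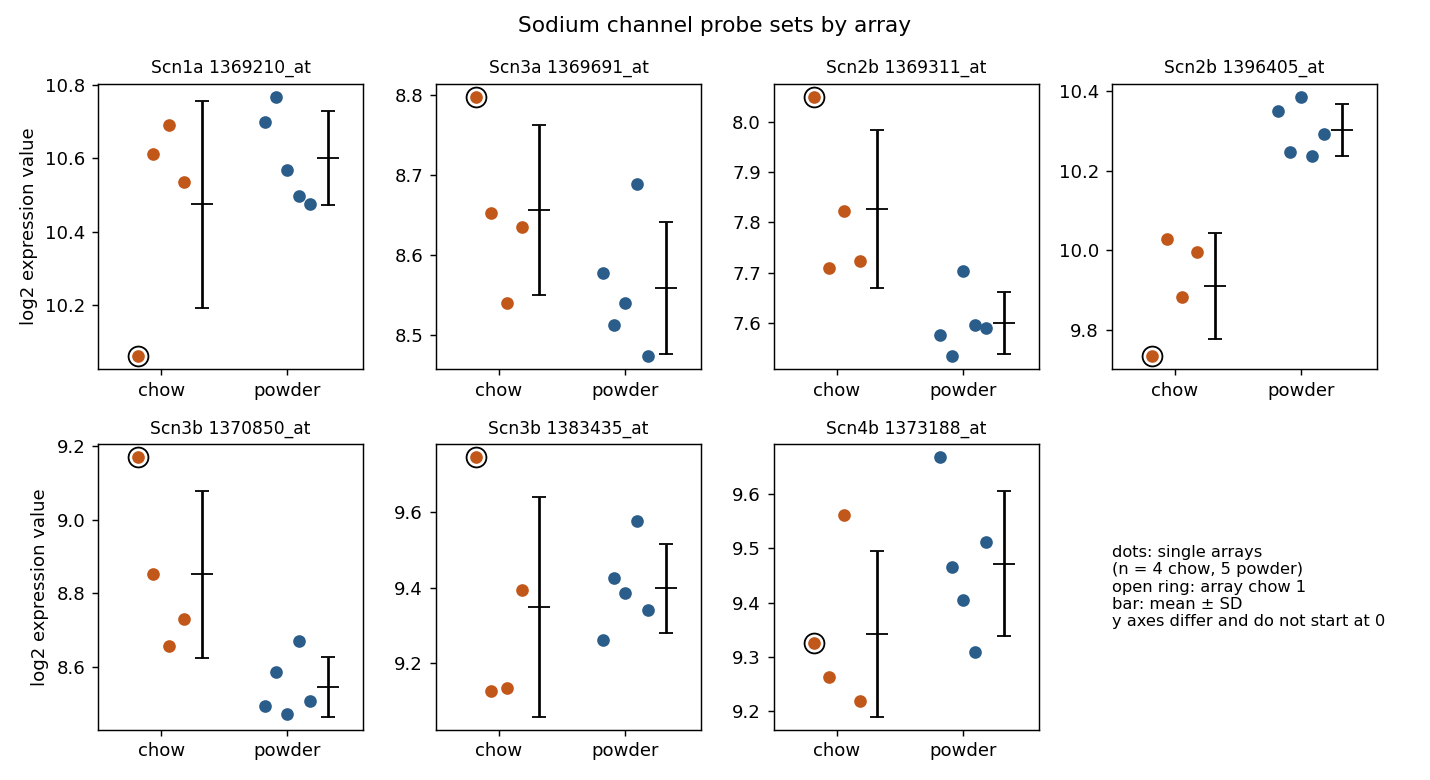
Log2 expression values (y axes, one scale per panel, not starting at 0) of the 7 member probe sets that spanned at least 0.01, for 4 chow arrays on the left and 5 powder arrays on the right of each panel. Dots are arrays, bars are mean ± SD, and the ring marks chow 1, which was the highest or lowest chow array in 6 of the 7 panels. The chow and powder arrays do not overlap for either Scn2b probe set.

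Scn2b, whose product is linked to the alpha subunit by a disulfide bond, gave 2 calls in opposite directions. The probe set of lower value under chow, 1396405_at, read 9.73, 10.03, 9.88 and 10.00 on chow arrays 1 to 4, against 10.35, 10.25, 10.39, 10.24 and 10.29 on powder arrays 1 to 5. Every chow array lay below every powder array. It averaged 9.91 ± 0.13 under chow and 10.30 ± 0.07 under powder (n = 4 and 5, SD), a log2 difference of -0.39 ± 0.065 (SE, 0.762-fold, limma adjusted p = 0.00642). That difference was larger in size than those of all but 5.38% of probe sets that spanned at least 0.01. It was called with each of the 9 arrays left out in turn, at -0.43 to -0.33 with adjusted p of 0.00948 to 0.0182, and stood at -0.33 without chow 1.

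The other Scn2b probe set, 1369311_at, read 8.05, 7.71, 7.82 and 7.72 on the chow arrays, against 7.57, 7.53, 7.70, 7.60 and 7.59 on the powder arrays. Every chow array lay above every powder array, chow 2 by a narrow margin over powder 3. It averaged 7.83 ± 0.16 under chow and 7.60 ± 0.06 under powder (n = 4 and 5, SD), a log2 difference of 0.23 ± 0.074 (SE, 1.17-fold, limma adjusted p = 0.0489). This call was marginal. It was kept without chow 1 (0.15 ± 0.044, adjusted p = 0.0474) or without chow 2, and it was lost without any 1 of the other 7 arrays, at adjusted p up to 0.0947.

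The platform annotation ties the higher probe set to the RefSeq mRNA NM_012877 and the lower one to the sequence BE097557, which is not a RefSeq mRNA accession. Which part of the transcript each one reads is not known here. A split of this kind was common in the table. Of 162 genes with at least 2 called probe sets that spanned 0.01 or more, 67 (41.4%) had calls in both directions. Calls of such probe sets over the whole array also ran both ways, 782 higher and 1880 lower. Whether probe sets of the same gene agreed more often than those of different genes was not tested. The 3' minus 5' value of the beta-actin control, a measure of RNA integrity and labelling, was 1.54, 1.58, 1.44 and 1.54 on the chow arrays, against 1.69, 1.68, 1.64, 1.55 and 1.70 on the powder arrays (exact permutation p = 0.0238, 0.0794 adjusted over 10 comparisons). With that value as a covariate, a choice made after the data were seen, the Scn2b differences were -0.33 ± 0.104 for 1396405_at (limma adjusted p = 0.107) and 0.18 ± 0.121 for 1369311_at (adjusted p = 0.359). Calls over all probe sets then fell to 567 higher and 862 lower. The beta-actin value itself averaged lower under chow, so in this fit it cannot be fully told apart from diet.

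Scn2b and Scn4b lie next to each other on rat chromosome 8, on the same strand, and only Scn2b held called probe sets, though a difference between the genes was not tested. Their promoters are given as sequence context for Scn2b, the gene with both sizeable calls, and for its neighbour. RefSeq sequences of assembly GRCr8, from 250 bases before to 50 after the start, were found for 6 of the 8 genes. Capitals mark each CG dinucleotide.
Scn2b, chr8:54322133-54322432, plus strand: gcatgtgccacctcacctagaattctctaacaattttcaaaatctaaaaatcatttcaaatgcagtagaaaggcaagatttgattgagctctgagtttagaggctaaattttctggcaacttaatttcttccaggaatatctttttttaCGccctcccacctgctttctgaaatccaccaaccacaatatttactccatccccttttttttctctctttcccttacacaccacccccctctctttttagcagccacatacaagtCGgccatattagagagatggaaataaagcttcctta
Scn4b, chr8:54343623-54343922, plus strand: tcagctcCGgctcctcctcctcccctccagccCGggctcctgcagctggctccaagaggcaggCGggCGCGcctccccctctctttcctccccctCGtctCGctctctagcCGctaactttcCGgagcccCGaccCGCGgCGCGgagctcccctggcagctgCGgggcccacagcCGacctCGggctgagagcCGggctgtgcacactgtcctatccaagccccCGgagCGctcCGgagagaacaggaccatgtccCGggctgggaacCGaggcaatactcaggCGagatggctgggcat
The Scn2b promoter held 2 CG dinucleotides and 39.0% G or C, and 86.4% of all 33469 promoters held at least as many CG. The Scn4b promoter held 24 CG and 70.0% G or C, and 17.95% of promoters held at least as many. Neither held the TATA box letters TATAAA or the GC box letters GGGCGG on either strand, found in 14.2% and 33.1% of all promoters. Among the other 4 promoters, GGGCGG was found for Scn8a.

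Scn4b, whose product is also disulfide-linked and is known for its role in the resurgent sodium current, was not called. It read 9.33, 9.26, 9.56 and 9.22 on the chow arrays, against 9.67, 9.47, 9.40, 9.31 and 9.51 on the powder arrays. The groups overlapped, with chow 3 above 4 of the 5 powder arrays. The log2 difference was -0.13 with a 95% interval of -0.35 to 0.09 (limma adjusted p = 0.293), and -0.12 without chow 1 (adjusted p = 0.405). Scn4b is strongly expressed in the striatum in rodents, and its value on chow 1 lay within the range of the other chow arrays. The part of striatal cells in the Scn4b values was not tested.

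Scn3b, whose product binds the alpha subunit without a covalent bond, had 2 probe sets that did not move alike. Probe set 1370850_at read 9.17, 8.85, 8.66 and 8.73 on the chow arrays, against 8.49, 8.59, 8.47, 8.67 and 8.51 on the powder arrays. Only chow 3 lay below a powder array, powder 4, at 8.66 against 8.67. The log2 difference was 0.31 ± 0.105 (SE, 1.24-fold, 95% interval 0.06 to 0.55, limma adjusted p = 0.0565), just short of a call. It was 0.20 ± 0.062 without chow 1 (adjusted p = 0.0565) and 0.37 without chow 3, where it was called (adjusted p = 0.0398). Of the 9 fits that left out an array, that was the only 1 with a call, and adjusted p reached 0.109. The difference was also called after quantile normalization (0.33, adjusted p = 0.0288) and with medians subtracted (0.31, adjusted p = 0.0169). It was not called with the beta-actin covariate (0.34 ± 0.175, adjusted p = 0.252) or with the label number as a block (0.30, adjusted p = 0.191).

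The second Scn3b probe set, 1383435_at, read 9.74, 9.13, 9.13 and 9.39 on the chow arrays, against 9.26, 9.43, 9.39, 9.58 and 9.34 on the powder arrays. Chow 1 was the highest and chow 2 and 3 the lowest of all 9 arrays. The log2 difference was -0.05 (95% interval -0.37 to 0.27, limma adjusted p = 0.795), and -0.18 without chow 1 (adjusted p = 0.176). Both probe sets had their highest value of all on chow 1, the array with the highest mean striatal, reticular nucleus and interneuron, and astrocyte marker levels. On the reticular nucleus and interneuron list, Pvalb went the other way, with its lowest value of all 9 arrays on chow 1, 9.07. The other probe sets of that list were highest on chow 1. The part of these cell types in the Scn3b values was not tested.

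**Figure D2:**
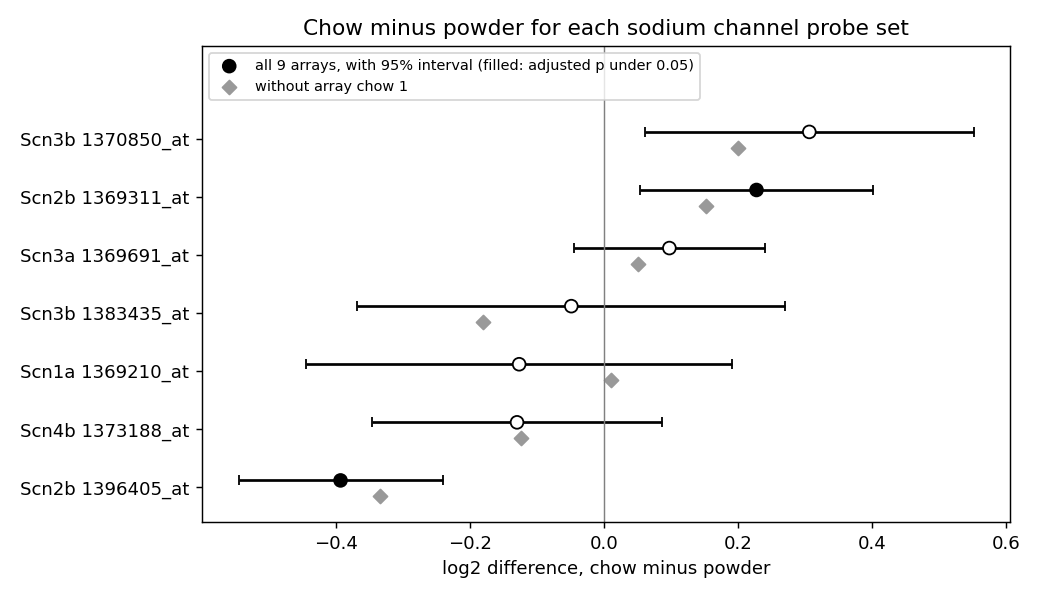
Log2 difference, chow minus powder (x axis), for each of the 7 member probe sets that spanned at least 0.01. Circles are differences over all 9 arrays with 95% intervals, filled where the adjusted p was under 0.05, and diamonds are differences without chow 1. Only the Scn2b circles are filled, one on each side of 0, and Scn1a moves to 0.01 without chow 1.

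Among the alpha subunits none was called in the main fit. Scn1a, the channel that carries much of the sodium current of fast-spiking inhibitory neurons, read 10.06, 10.61, 10.69 and 10.54 on the chow arrays, against 10.70, 10.77, 10.57, 10.50 and 10.48 on the powder arrays. Chow 1 alone lay below the powder range, and the other 3 chow arrays lay within it. The log2 difference of -0.13 (95% interval -0.44 to 0.19, limma adjusted p = 0.479) became 0.01 ± 0.080 without chow 1 (adjusted p = 0.923). Relay neuron markers also averaged lowest on chow 1. Reticular nucleus and interneuron markers averaged highest there, at 9.40, though Pvalb of that list was lowest, at 9.07. The part of these cell types in the Scn1a value of chow 1 was not tested.

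Scn3a, an alpha subunit expressed most strongly before and soon after birth in rodents, read 8.80, 8.65, 8.54 and 8.64 on the chow arrays, against 8.58, 8.51, 8.54, 8.69 and 8.47 on the powder arrays. The groups overlapped over most of their range. The log2 difference was 0.10 (95% interval -0.04 to 0.24, limma adjusted p = 0.234), and 0.05 without chow 1 (adjusted p = 0.491).

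The members with compressed values carried almost no difference in size. Scn2a, the alpha subunit of unmyelinated axons and of the early axon initial segment, lay between 9.7710 and 9.7711 on the chow arrays and between 9.7710 and 9.7712 on the powder arrays (limma adjusted p = 0.872). Scn8a, the main alpha subunit of mature nodes of Ranvier, lay between 7.2187 and 7.2192 under chow and between 7.2185 and 7.2191 under powder (adjusted p = 0.124). Nalcn lay between 10.0608 and 10.0641 under chow and between 10.0644 and 10.0673 under powder, without overlap. Its difference of -0.0036 ± 0.0009 (SE) was called (adjusted p = 0.0205), as were 30.9% of compressed probe sets. It was 0.026 after quantile normalization (adjusted p = 0.0128) and 0.0030 with medians subtracted (adjusted p = 0.0636), so its direction was set by the scaling. Under the same 2 scalings Scn2a was called at 0.028 and 0.0066 (limma adjusted p = 0.00247 and 0.00198). Scn8a was called at 0.0043 and 0.0069 (limma adjusted p = 0.0224 and 0.00198).

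Values of the members spread more widely under chow. The SD was larger under chow than under powder for 7 of the 7 members that spanned at least 0.01, and for 73.1% of all such probe sets. Without chow 1 it was larger for 4 of the 7, and for 55.4% of all. The median SD of the 7 was 0.158 under chow and 0.0822 under powder, and 0.0771 under chow without chow 1. Chow 1 was the highest chow array for 4 of the 7 (Scn3a, 1369311_at of Scn2b and both probe sets of Scn3b) and the lowest for 2 (Scn1a and 1396405_at of Scn2b).

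**Figure D3:**
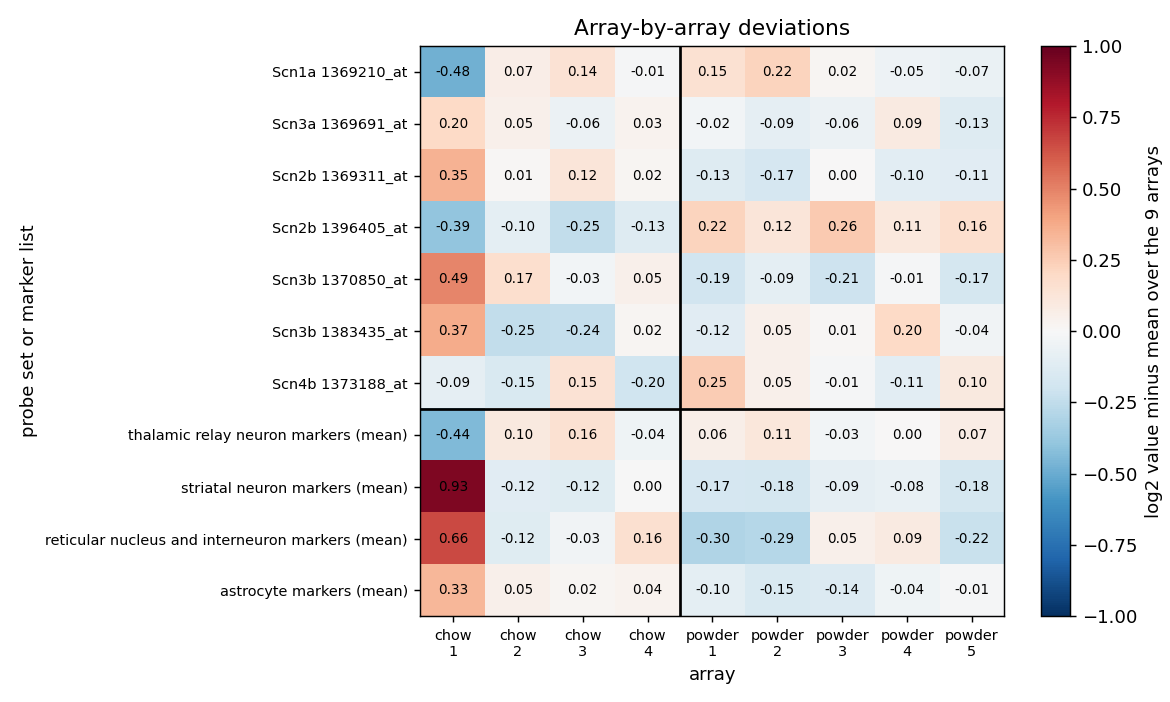
Log2 value minus the mean over the 9 arrays (colour and printed number) for the 7 member probe sets, above the line, and for 4 marker lists averaged over their probe sets that spanned at least 0.01, below it. Columns are the 4 chow arrays, then the 5 powder arrays. Chow 1 holds the darkest cells, both for the markers and for most members, and the 1396405_at row of Scn2b is below 0 on every chow array and above 0 on every powder array.

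Of the marker lists, only that of astrocytes passed the test between diets after adjustment. Astrocyte markers (6 of 13 probe sets spanned at least 0.01) averaged 9.98 to 10.29 on the chow arrays and 9.81 to 9.94 on the powder arrays, without overlap, also when chow 1 is left aside (exact permutation p = 0.00794, 0.0397 adjusted over 10 comparisons). Called probe sets of that list with a span of at least 0.01 were 1 probe set of the water channel Aqp4 and 1 of the glutamate transporter Slc1a3, both higher, or 2 of 6, against 54.9% of all such probe sets. Not called were another Aqp4 probe set at -0.14, Gfap, the intermediate filament of astrocytes, at -0.20, the connexin gene Gja1 at 0.44 and another Slc1a3 probe set at 0.02. Striatal neuron markers ranged from 7.63 to 8.69 under chow and from 7.57 to 7.67 under powder (exact permutation p = 0.0476, 0.119 adjusted). Reticular nucleus and interneuron markers ranged from 8.62 to 9.40 under chow and from 8.44 to 8.82 under powder (exact permutation p = 0.119, 0.238 adjusted). Oligodendrocyte markers ranged from 11.87 to 12.04 under chow and from 11.90 to 12.09 under powder (exact permutation p = 0.770, also after adjustment). The part of these cells in the members' values was not tested.

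Genes of the same pathway were counted from lists chosen with earlier results of these data known. Their counts stand beside 34.6% called over all probe sets and 54.9% over those that spanned at least 0.01. Of the 9 pathway probe sets named by rule, only 1398368_at of Unc80 was still called with the beta-actin covariate, and the other 8 had adjusted p of 0.0819 to 0.384. Of 5 other voltage-gated sodium channel genes measured by 5 probe sets, 0 were higher and 1 lower under chow in the limma fit. It was Scn7a, an atypical channel that senses extracellular sodium, at 8.11, 8.53, 8.87 and 8.63 on the chow arrays, against 9.08, 9.08, 8.96, 8.82 and 8.95 on the powder arrays. Chow 3 overlapped with powder 4. Its log2 difference of -0.45 ± 0.146 (SE, adjusted p = 0.0499) was -0.30 without chow 1 (adjusted p = 0.0583) and was called in 1 of the 9 fits that left out an array, the one without chow 3.

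The genes that assemble with the leak channel gave 2 higher and 2 lower calls among 7 probe sets of 4 genes, all on compressed probe sets except 1 of Unc80. Unc80 is the large scaffold protein that links the channel to its partner Unc79. Probe set 1398368_at of Unc80 read 10.07, 10.20, 10.30 and 10.24 on the chow arrays, against 10.47, 10.56, 10.47, 10.53 and 10.44 on the powder arrays. Every chow array lay below every powder array. The log2 difference was -0.29 ± 0.048 (SE, limma adjusted p = 0.00609), it was called with each array left out in turn, and it was -0.37 with the beta-actin covariate (adjusted p = 0.0448). A compressed Unc80 probe set was called the other way. Without chow 1 the list gave 0 higher and 2 lower calls, so neither higher call was kept. Nalf1, another subunit of the complex, was at -0.08 and not called (adjusted p = 0.208).

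Scaffold genes of the axon initial segment and the node, where sodium channels are anchored, gave 3 higher and 7 lower calls among 23 probe sets of 10 genes. Among the 8 probe sets that spanned at least 0.01, 2 were higher and 4 lower, with a median difference of -0.11. Without chow 1 the whole list gave 4 higher and 4 lower calls, and the probe sets that spanned at least 0.01 again gave 2 and 4. Sptbn4, the beta-IV spectrin of initial segments and nodes, was at 9.06 ± 0.07 under chow and 9.24 ± 0.05 under powder (n = 4 and 5, SD; -0.18 ± 0.039, limma adjusted p = 0.0143). Nfasc, the adhesion molecule neurofascin of both sites, was at -0.09 (adjusted p = 0.0240). Ank2, ankyrin-B of the axon shaft, had called probe sets at -0.28 and 0.38, and Sptbn1, the beta-II spectrin, at 0.29 and -0.31. Thus 2 of these genes showed the same split between probe sets as Scn2b. All 3 probe sets of Ank3, the ankyrin-G that anchors sodium channels, were compressed and not called. Nfasc and the second probe set of Sptbn1 were named after their values were seen.

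Among regulators of channel number and gating, 3 probe sets were higher and 1 lower of 15, of 7 genes. All probe sets of the fibroblast growth factor homologous factors, which bind the alpha subunit's tail, were compressed. Nedd4, a ubiquitin ligase of a family that removes sodium channels from the membrane, had 3 probe sets that spanned at least 0.01, at 0.48, 0.25 and 0.12, of which the first was called. It averaged 8.85 ± 0.13 under chow and 8.36 ± 0.09 under powder (n = 4 and 5, SD; 0.48 ± 0.070, limma adjusted p = 0.00444), and it was called with each array left out in turn. With the beta-actin covariate it was at 0.39 and not called (adjusted p = 0.0819).

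Sodium pump subunits, which restore the sodium gradient that the channels spend, gave 2 higher and 0 lower calls among 7 probe sets (5 genes). That share lay below the 34.6% called in either direction over all probe sets and above the 17.9% called higher. Among the 5 probe sets that spanned at least 0.01, 2 were higher and 0 lower. Of all such probe sets, 16.1% were higher and 38.8% lower. The difference from these shares was not tested. Atp1b1 was at 12.65 ± 0.07 under chow and 12.52 ± 0.04 under powder (n = 4 and 5, SD; 0.13 ± 0.037, limma adjusted p = 0.0304), and it was lost without chow 2, powder 1, powder 3 or powder 5. Atp1b2, the beta subunit of glia, was at 11.62 ± 0.14 under chow and 11.43 ± 0.04 under powder (0.19 ± 0.062, adjusted p = 0.0460). Its call was kept only without chow 1 (0.25, adjusted p = 0.0191). On chow 1, where astrocyte markers were highest, this probe set of Atp1b2, 1379906_at, had its lowest chow value, 11.46. Another Atp1b2 probe set, at 0.21 and not called (limma adjusted p = 0.0619), did not have its lowest chow value there. It read 8.20, 8.19, 8.28 and 8.13 on chow arrays 1 to 4. The part of astrocytes in the Atp1b2 values was not tested.

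**Figure D4:**
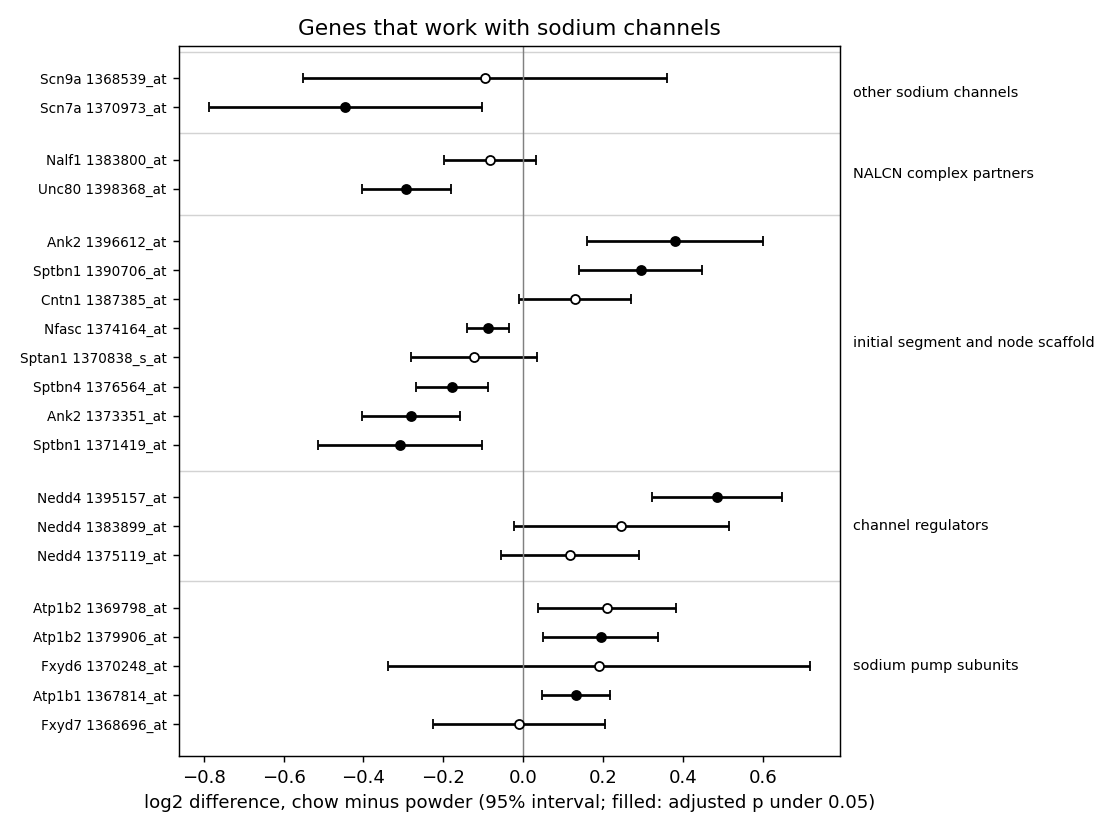
Log2 difference, chow minus powder (x axis), with 95% intervals for the 20 probe sets of the pathway lists that spanned at least 0.01, grouped by list at the right. Filled circles had an adjusted p under 0.05. Ank2 and Sptbn1 each have a filled circle on both sides of 0, and the filled circles of the sodium pump and of Nedd4 lie above 0.

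The genes whose pattern over the 9 arrays lay closest to a member were found by the root mean square difference of mean-centred log2 values, among 3432 named probe sets that spanned at least 0.01. Closest to 1396405_at of Scn2b were the adhesion receptor gene Adgrf5 (0.036), Rpl37-ps2 (0.039) and the adaptor subunit gene Ap3s1 (0.045). Closest to 1369311_at of Scn2b were Gpbp1 (0.027), the co-repressor gene Tle4 (0.038) and Scamp2 of secretory carrier membranes (0.039). Closest to 1370850_at of Scn3b were the transcription factor gene Sox2 (0.052), the neuronal adhesion gene Negr1 (0.055) and Arid4a (0.072). Closest to Scn4b were the transcription factor gene Etv1 (0.072), the BMP antagonist gene Nog (0.075) and Reep1 (0.078).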

How the data were processed

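RNA was isolated with TRIzol and an RNeasy kit, and 100 ng was turned into biotinylated cRNA, per the labels' protocols. The authors' deposited table holds 31099 probe sets on 9 arrays. Its range marks the deposited values as log2. For the software, background correction, normalization and centring, nothing is given in the sources used here. All its columns were used, and no further normalization was applied. The number of arrays limits the precision.

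Gene names came from the platform annotation, where 20826 of 31042 rat probe sets had 1 symbol, 436 several and 9780 none listed. The RefSeq gene table of GRCr8 held all 8 members under the same symbols. After 57 control probe sets were left out, chow minus powder was fitted with limma 3.58.1 in R 4.3.3 (lmFit and eBayes, no covariate), adjusted over all rat probe sets and called at an adjusted p under 0.05. The fit was tested on simulated data. Two-sided exact permutation tests compared single values per array.

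The members, gene lists, tests and the limit of 0.01 were chosen with earlier results of these data known. All member probe sets that spanned at least 0.01 were named with their values, plus up to 4 called probe sets of smallest p per pathway list, and the 3 closest neighbours of the 4 members of largest difference. The alternatives were a trended robust variance, 2 scalings, leaving out dim or compressed probe sets, array weights, the label number as a block, each array left out, no moderation, an adjusted p under 0.1 and, added after seeing the data, the beta-actin covariate. The label numbers were not taken as pairs, because only 1 of the 4 same-numbered pairs had a correlation of deviations over 0.1.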

Additional observations from a re-analysis of the deposited data

Results flagged for a closer look

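For 3 of the 58 groups of values checked, 1 array lay far from the rest of its group, where chance gives about 1 in 20. Striatal neuron markers averaged 8.69 on chow 1, and the next chow array was at 7.75. Astrocyte markers averaged 10.29 on chow 1, and the next was at 10.01. The choroid plexus value, from 1 probe set of Ttr, was 9.53 on chow 3, and the next was at 8.45. No single member probe set had such an array.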

How the results depend on the processing

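Against 1 higher and 2 lower member probe sets, a trended robust variance, no moderation and the beta-actin covariate each gave 0 higher. Lower calls were 0 with that covariate and 2 under the first pair. Quantile normalization gave 5 higher and 1 lower, subtracted medians 4 and 1, and leaving out compressed probe sets 2 and 1, with Nalcn then not tested. Array weights and an adjusted p under 0.1 each gave 2 higher. With 1 array left out, higher calls were 0 to 1 and lower calls 2 to 2. Over all rat probe sets, 5558 were higher and 5195 lower, against 15610 and 1854 after quantile normalization, 27206 and 2141 with medians subtracted, 865 and 2019 without compressed probe sets, and 567 and 862 with the covariate. With 1 array left out they were 3661 (without powder 1) to 4879 higher and 3906 to 4843 lower. Same-numbered samples did not deviate together (correlations -0.31, 0.19, -0.34 and -0.16, and 0 of 4 correlated best with its own number). The replicate block, without powder 5, gave 0 higher and 0 lower members and 1 and 18 over all probe sets. Signs turned for Scn1a without chow 1 (0.011, range -0.198 to 0.011 with 1 array left out), for 1383435_at of Scn3b without chow 2 (0.026) or chow 3 (0.023; range -0.180 to 0.026), and for Nalcn after quantile normalization (0.026) and with medians subtracted (0.0030). For Scn2a they turned to 0.028 after quantile normalization, 0.0066 with medians subtracted, 1.45e-05 with array weights, and 1.15e-05, 7.45e-06 and 2.1e-05 without chow 1, powder 3 and powder 4 (range -4.14e-05 to 2.1e-05). For compressed probe sets the scaling shift exceeded their span, and for other changes the cause was not tested. No detection calls were used here, so signal over background is unknown.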

Other observations

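The kind of sequence behind a probe set went with its direction across the array. Among named probe sets that spanned at least 0.01, the 502 tied to a RefSeq mRNA accession had 104 higher and 72 lower calls under chow (20.7% and 14.3%, limma adjusted p under 0.05), with a median difference of 0.03. The 2931 tied to another accession had 546 higher and 1097 lower calls (18.6% and 37.4%), with a median difference of -0.09. The Scn2b probe set higher under chow was of the first kind and the lower one of the second. The other members that spanned at least 0.01 were not called and went both ways. Against that pattern were 1370850_at of Scn3b, of the second kind, at 0.31 and Scn1a, of the first kind, at -0.13. With it went Scn3a, of the first kind, at 0.10. So did 1383435_at of Scn3b, at -0.05, and Scn4b, at -0.13, both of the second kind. The counts given here are over probe sets, which are not replicates, and the difference between the kinds was not tested.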
